A study of Mus musculus with 8 samples.

Results

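The genes described here are those that a T cell uses to leave the blood, to hold on to other cells and matrix, and to find its place in a tissue. They comprise chemokine receptors, lipid and metabolite receptors that steer migration, integrin chains, adhesion molecules and the proteins that switch integrins on. They were picked by gene symbol, with no measured value in the rule but with earlier results of these data known. Of the 39 genes, 37 were listed among the 13704 genes of the RNA-seq tables of T helper 17 (Th17) cells. The chemokine receptor Ccr9 and the integrin alpha chain Itgal were listed in neither table under these or older symbols, so their levels are not described. Whether these genes were unexpressed or not counted was not tested. All 37 had at least 10 reads over both libraries, the minimum for the test used below.

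One library came from wild-type (WT) C57BL/6 cells and 1 from C57BL/6 cells of the genotype TRIM28fl/flxCD4cre (TRIM28KO), in which Cre driven by the Cd4 promoter deletes the loxP-flanked Trim28 gene in developing T cells. TRIM28 is a chromatin cofactor best known for working with zinc finger repressors. Naive CD4+ T cells of both genotypes were kept for 3 days in TGF-β (0.5 ng/ml) plus IL-6 (20 ng/ml) and, per the methods of the study, stimulated again through CD3 before RNA extraction. How many mice each library came from was not given in the sources used here. The remaining 6 samples of the series, which map p300 and TRIM28 on chromatin with their inputs, were not analysed here. There was no replicate of either library, so every difference below has no replicate check and every test compares these libraries, not the genotypes.

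The WT table held 6650066 reads on 13078 genes and that of TRIM28KO held 6185108 reads on 12754 genes. Trim28 itself had 4485 reads in WT and 180 in TRIM28KO, a log2 fold change of -4.53 (95% interval -4.76 to -4.32). All 8 T cell markers examined had reads in both libraries, among them Cd3e with 4407 and 4778 reads and Cd4 with 7904 and 6598. The Th17 cytokine genes Il17a (2226 and 381 reads) and Il17f (3143 and 345 reads) were lower in TRIM28KO. Of genes marking other cells, none of 5 NK cell markers was listed, 3 of 12 myeloid markers had 4 and 3 reads in sum, and 6 of 7 B cell markers had 94 and 47 reads in sum. Dendritic cell markers summed to 355 and 293 reads, of which H2-Ab1 held 275 and 222, Itgax 0 and 4 and Zbtb46 0 and 7. Of the CD8 T cell markers, Cd8a had 1 and 2 reads and Cd8b1 had 52 and 27. In bulk RNA, fewer cells of a type and less RNA per cell cannot be told apart.

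T cells roll on vessel walls through selectin ligands, sense chemokines through receptors coupled to inhibitory G proteins, and then stop when those receptors signal to integrins. Integrins are pairs of an alpha and a beta chain, and their grip on ligand rises when talin and kindlin bind the beta chain's tail under the control of the small GTPase Rap1. Which receptors a T cell carries sets where it goes. CCR7 and S1P receptors govern entry to and exit from lymph nodes, CXCR5 and GPR183 govern position around B cell follicles, CXCR3 and CXCR6 are typical of inflamed tissue, CCR4 and CCR8 of skin, and CCR6 is a hallmark receptor of Th17 cells.

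As sequence context for the receptors that the results turn on, the 250 bases before the annotated start of 4 genes follow, from RefSeq, build GRCm38.p6, 5′ to 3′ on the strand of the gene. Cxcr4 and Cxcr3 are shown because they differed most in opposite directions among the chemokine receptors described here with over 100 reads, Ccr6 because it is the Th17 receptor, and Ccr4 because it was the second most abundant chemokine receptor. Capitals mark matches to 3 motifs searched on both strands, TTCNNNGAA (STAT), AGGTCA (the half-site of nuclear receptors) and TGANTCA (AP-1).
Cxcr4, chr1:128592300-128592549, minus strand: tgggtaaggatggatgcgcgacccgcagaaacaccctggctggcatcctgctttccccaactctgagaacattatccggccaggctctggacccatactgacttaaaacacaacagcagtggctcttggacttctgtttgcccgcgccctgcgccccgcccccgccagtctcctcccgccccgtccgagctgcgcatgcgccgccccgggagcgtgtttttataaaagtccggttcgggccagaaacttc
Cxcr3, chrX:101734148-101734397, minus strand: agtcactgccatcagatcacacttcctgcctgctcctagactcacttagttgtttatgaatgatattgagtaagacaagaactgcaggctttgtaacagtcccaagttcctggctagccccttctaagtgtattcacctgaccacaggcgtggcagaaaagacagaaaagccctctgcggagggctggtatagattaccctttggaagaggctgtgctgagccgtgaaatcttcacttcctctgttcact
Ccr6, chr17:8235793-8236042, plus strand: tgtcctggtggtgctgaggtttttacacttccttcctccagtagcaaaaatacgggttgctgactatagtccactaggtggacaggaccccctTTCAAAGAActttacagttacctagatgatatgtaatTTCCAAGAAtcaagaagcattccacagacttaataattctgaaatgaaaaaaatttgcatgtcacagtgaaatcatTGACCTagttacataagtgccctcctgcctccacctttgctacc
Ccr4, chr9:114496545-114496794, minus strand: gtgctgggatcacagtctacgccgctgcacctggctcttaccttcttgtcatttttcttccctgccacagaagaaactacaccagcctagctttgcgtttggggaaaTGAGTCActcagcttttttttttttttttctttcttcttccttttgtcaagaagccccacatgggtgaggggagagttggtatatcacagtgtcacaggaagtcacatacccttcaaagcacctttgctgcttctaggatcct

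The windows of Cxcr4 and Cxcr3 held none of these letters. The Ccr6 window shown held the STAT letters at -157 (TTCAAAGAA) and -120 (TTCCAAGAA) from the start and the half-site letters on the other strand at -44 (TGACCT), and the Ccr4 window held the AP-1 letters at -143 (TGAGTCA). A second Ccr6 window in RefSeq, before another annotated start (chr17:8242276-8242525), held none of the motifs. No match overlapped another. Of the 28 genes of the set with a RefSeq window, counting Ccr9, 2 held the STAT letters (Ccr6 and Icam1). The half-site letters were held by 3 (Ccr6, Ly6c1 and Apbb1ip) and the AP-1 letters by 1 (Ccr4). Counted by window, these were 2, 3 and 1 of 35. Across all 32851 RefSeq windows of this length, 7.02% held the STAT letters, 14% the half-site letters and 6.75% the AP-1 letters. These matches describe the letters only.

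Levels are given per length as RPKM (the reads assigned to the gene, scaled by the length of its longest annotated transcript and by the library's total). The members were well expressed, with a median of 25.1 RPKM in WT and 25.2 in TRIM28KO against 8.64 and 8.35 over all tested genes. Together they took 51238 reads in WT and 50980 in TRIM28KO, or 7705 and 8242 CPM, the unit of reads scaled to the library's total. Selplg, encoding the P-selectin ligand PSGL-1, stood highest in both libraries at 461 and 546 RPKM, followed by Ccr7 at 454 and 472. Next in WT came Itgb7, Fermt3, Rap1b and Itgb2. In TRIM28KO Cd24a moved from the 9th to the 4th place. At the other end, 9 members had under 100 reads over both libraries, among them Ccr6 and Cd44.

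**Figure D1:**
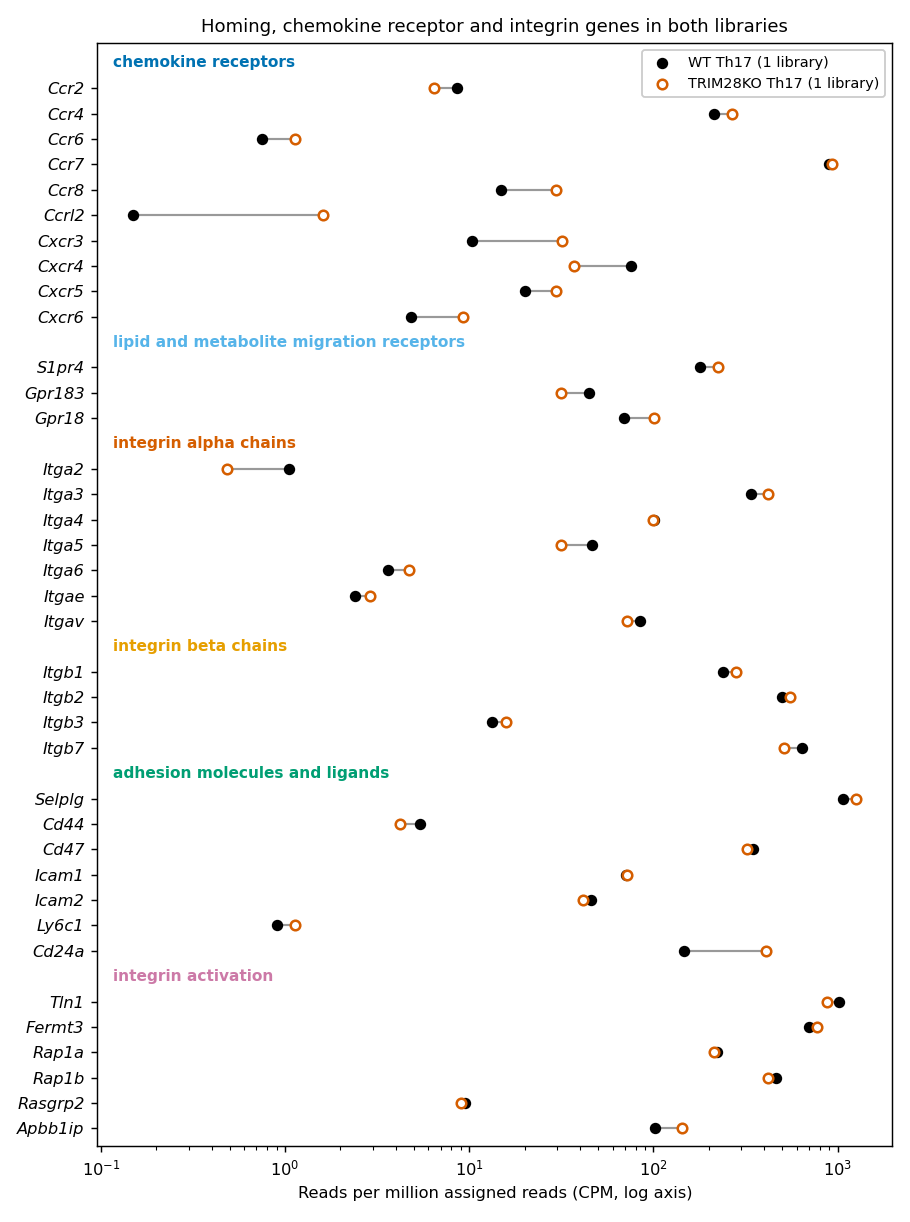
Level of each of the 37 genes in CPM (log axis), WT as filled and TRIM28KO as open circles, 1 library each and so no error bar, grouped by role. Most pairs of circles nearly touch, and the widest gaps are at Ccrl2 (1 and 10 reads), Cxcr3, Cd24a, Itga2 (7 and 3 reads) and Cxcr4.

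Each gene's reads were tested against the share of all reads held by the TRIM28KO library (exact binomial test, two-sided), with Benjamini-Hochberg adjustment over 10881 genes. A gene was called where the adjusted p was under 0.05 and the change at least 2-fold, and was taken as past counting error where the adjusted p was under 0.05 at any fold. Of the 37 members 1 was called lower in TRIM28KO (Cxcr4) and 3 were called higher (Cxcr3, Ccrl2 and Cd24a). Over all tested genes 5.53% were called lower and 2.57% higher, against 2.70% and 8.11% of the members. Past counting error at any fold, 7 members were lower and 15 higher, or 18.9% and 40.5%, beside 22.4% and 21.4% of all tested genes. The members hold more reads than the typical gene, with a median of 917 over both libraries against 359. Among genes with at least 100 reads, 25% of 28 members were lower and 46.4% higher, against 26.7% and 27.8% of 7663 tested genes. Because the members were chosen with earlier results of these data known, the difference between these shares was not tested.

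The changes were mostly small. Of the 22 members past counting error 16 changed by under 1.5-fold, and the median log2 fold change of the 37 was 0.16, against -0.02 over all tested genes. In this pair of libraries long transcripts were lower in TRIM28KO. The median log2 fold change ran from 0.285 among the shortest transcripts to -0.436 among the longest, in 10 bins of equal size by transcript length, with a Spearman correlation of -0.373 across 10792 genes, which are not independent replicates. After centring on the loess curve of fold change against length, 25 members were positive in place of 22 and their median was 0.20, against 0.00 over all genes. Whether the length trend is technical was not tested. Values after centring stand beside several of the long and short genes below.

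**Figure D2:**
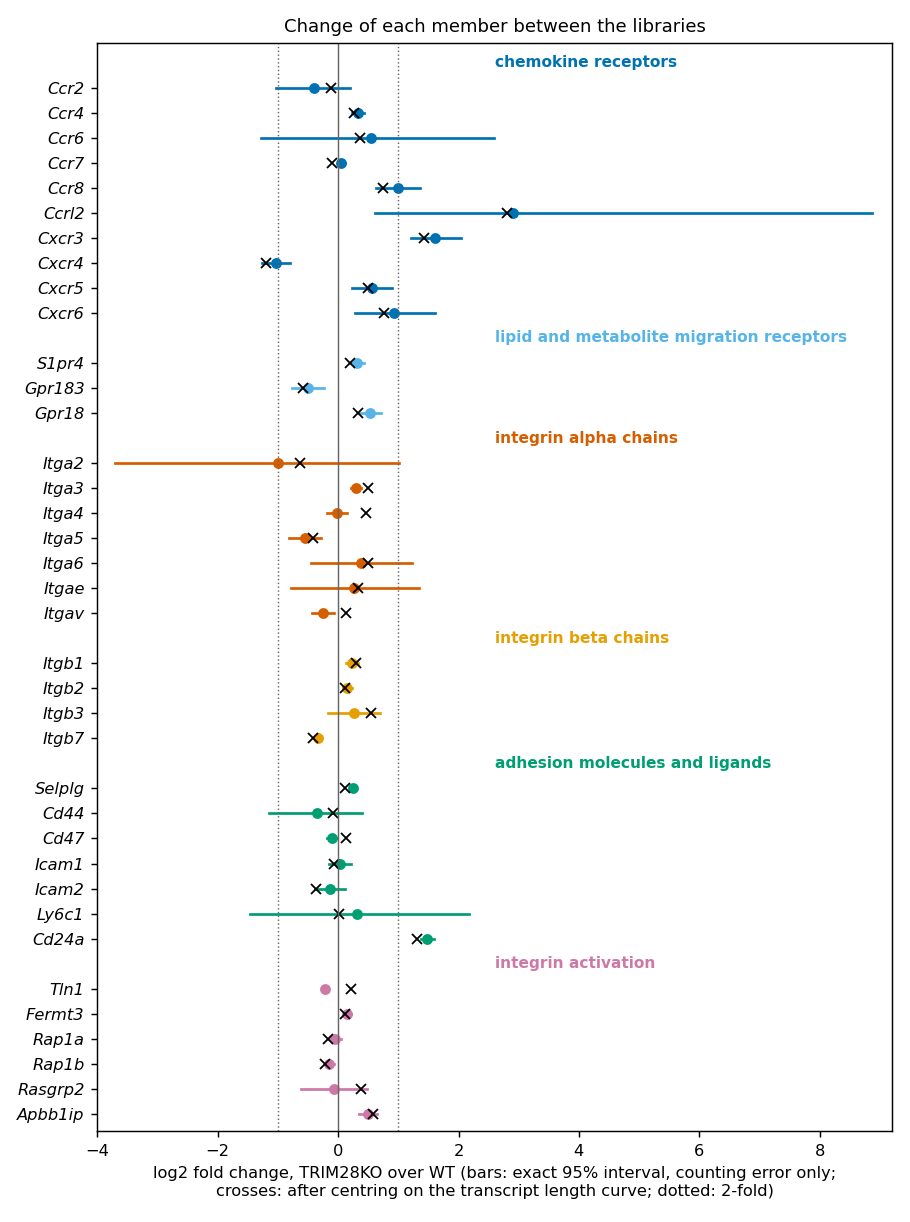
Log2 fold change of each gene, TRIM28KO over WT (circles), with exact 95% intervals that cover counting error only (bars) and the value after centring on the length curve (crosses). Cxcr4 lies at -1.03, Cxcr3 and Cd24a lie at 1.61 and 1.48, and the interval of Ccrl2 is the widest, with 1 read in WT.

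Of the 10 chemokine receptors measured, 6 were higher past counting error and 1 was lower. Of all tested genes 21.4% were higher and 22.4% lower. The median log2 fold change of the 10 was 0.55, or 0.43 after centring on length. The summed reads of these receptors were close, 8299 in WT and 8336 in TRIM28KO, and most belonged to 1 gene. Ccr7, the lymph node homing receptor, held 72% of the chemokine receptor reads in WT and 69.2% in TRIM28KO. Its reads numbered 5975 and 5769 (log2 fold change 0.05, 0.00 to 0.11, exact binomial test, adjusted p = 0.0893). The sign turned on length, at -0.11 after centring. Ccr4, a receptor of skin-homing and Th2 cells, held 17.2% and 19.9%, with 1426 and 1662 reads (0.33, 0.22 to 0.43).

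Cxcr4, the receptor for CXCL12 that holds cells in bone marrow and lymphoid tissue, fell from 502 reads (41.8 RPKM) to 229 (20.5 RPKM). That is 2.04-fold lower, a log2 fold change of -1.03 (-1.26 to -0.80, exact binomial test with Benjamini-Hochberg adjustment, adjusted p = 5.19e-19). The gene lies at chr1:128588199-128592299. Its estimate sits just beyond the 2-fold limit, and with the GC content of transcripts taken out it was -0.93, short of the limit.

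Cxcr3, the receptor for the interferon-induced chemokines CXCL9, CXCL10 and CXCL11 and typical of Th1 cells, went the other way. It rose from 69 reads (5.99 RPKM) to 197 (18.4 RPKM), or 3.06-fold, a log2 fold change of 1.61 (1.22 to 2.04, exact binomial test with Benjamini-Hochberg adjustment, adjusted p = 2.10e-16). Its position is chrX:101731535-101734147. The ratio of Cxcr4 to Cxcr3 reads was 7.28 in WT and 1.16 in TRIM28KO, 6.25 times less (95% interval 4.52 to 8.71). This pair, like the other gene pairs below, was chosen after the values were seen.

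Ccr8, found on skin-resident and regulatory T cells, rose from 99 to 183 reads, a log2 fold change of 0.99 (0.63 to 1.36). It missed the 2-fold limit as run and was called under both other normalizations tried, at 1.01 with TMM. After centring on length it was 0.74, and with the GC content of transcripts taken out it was 0.95. It was not called where a biological variation of 0.2 or 0.4 was assumed. Cxcr6, the receptor for CXCL16, rose from 32 to 57 reads (0.93, 0.29 to 1.61, and 0.76 after centring). Cxcr5, the follicle-homing receptor of follicular helper cells, rose from 133 to 182 (0.56, 0.23 to 0.89, and 0.50 after centring). None of these 3 was called at 2-fold in the comparison as run. Ccrl2, an atypical receptor that presents the attractant chemerin without signalling, had 1 read in WT and 10 in TRIM28KO. Its log2 fold change of 2.91 has an interval of 0.61 to 8.87, so its call rests on 11 reads.

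Ccr6 and Ccr2 gave no detectable difference at this depth. Ccr6, the CCL20 receptor, had 5 reads in WT and 7 in TRIM28KO, under 1 RPKM in both, and its interval of -1.28 to 2.59 holds large changes in either direction. The CCR6 ligand gene Ccl20 had 12 and 0 reads. The counts of Ccr6 were low in both libraries although it stands on the list of Th17 markers. The annotation and the handling of shared reads were not given, so these counts do not establish low expression. Ccr2, the CCL2 receptor, had 57 and 40 reads (-0.40, -1.03 to 0.20).

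Several of these receptors share a stretch of chromosome 9, from Cxcr6 (chr9:123806477-123811754) through Xcr1, Ccr1 and Ccr3 to Ccr2 (chr9:124101918-124109140). Cxcr6 was higher past counting error, Ccr2 did not pass the test, Xcr1 had 13 and 14 reads, and Ccr3 (7 and 1) and Ccr1 (2 and 1) were under the read minimum. Ccrl2 lies apart on the same chromosome, at chr9:111054834-111057518. Cxcr6 lies within the span of Fyco1, which had 4 and 2 reads.

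Of the 3 lipid and metabolite receptors 2 were higher and 1 lower past counting error, beside 21.4% and 22.4% of all tested genes. S1pr4, a sphingosine-1-phosphate receptor of lymphocytes, had 1187 and 1379 reads (0.32, 0.21 to 0.43). Gpr183, the oxysterol receptor EBI2 that positions cells at follicle borders, fell from 299 to 196 reads (-0.50, -0.77 to -0.24). Gpr18, a receptor known from intraepithelial T cells of the gut, rose from 463 to 624 reads (0.53, 0.36 to 0.71, and 0.32 after centring). Gpr183 and Gpr18 are neighbours on chromosome 14, yet the ratio of Gpr183 to Gpr18 reads was 0.646 in WT and 0.314 in TRIM28KO, 2.06-fold less (1.65 to 2.57). Both genes lie inside the span of Ubac2 (chr14:121878559-122021035), a UBA-domain gene that rose from 689 to 1081 reads (0.75, 0.62 to 0.89). The sources used here do not say whether strand was used in counting, so reads of overlapping transcripts cannot be told apart. Outside that span, Tm9sf2 had 975 and 954 reads and Dock9 had 7 and 4.

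Integrin chains moved little, and none was called, beside 5.53% of all tested genes called lower and 2.57% called higher. The most abundant chain was Itgb7, the beta chain of the gut-homing integrin α4β7 and of αEβ7. It fell from 4287 reads (240 RPKM) to 3162 (191 RPKM), a log2 fold change of -0.33 (-0.40 to -0.27). Itgb1, the alternative partner of the α4 chain and the beta chain of the collagen and fibronectin receptors, rose from 1596 to 1748 reads (0.24, 0.14 to 0.33). The ratio of Itgb7 to Itgb1 reads therefore went from 2.69 to 1.81, 1.48-fold less (1.37 to 1.61). Itgb2, the beta chain of LFA-1 and the other leukocyte integrins, had 3307 and 3427 reads (0.16, 0.09 to 0.23), and Itgb3 had 88 and 98 (0.26, -0.17 to 0.69, and 0.54 after centring).

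Among alpha chains, Itga3, a chain of laminin receptors, was the highest and rose from 2248 to 2582 reads (0.30, 0.22 to 0.39), or 0.50 after centring. Itga5, of the fibronectin receptor, fell from 308 to 195 (-0.55, -0.82 to -0.29) and was -0.42 after centring on length. Itgav, whose integrins bind vitronectin and release active TGF-β, had 565 and 444 reads (-0.24, -0.43 to -0.06). Its sign turned on length, since it became 0.12 after centring. Itga4, the α4 chain, had 670 and 615 reads (-0.02, -0.18 to 0.14) and 0.46 after centring. Itga2 (7 and 3 reads, -0.99 and -0.63 after centring), Itga6 (24 and 29) and Itgae (16 and 18), which pairs with β7 to bind E-cadherin on epithelium, were too shallow for a difference to be detected. In WT Itgb7 stood at 240 RPKM, Itga4 at 10.3 RPKM and Itgae at under 1 RPKM.

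**Figure D3:**
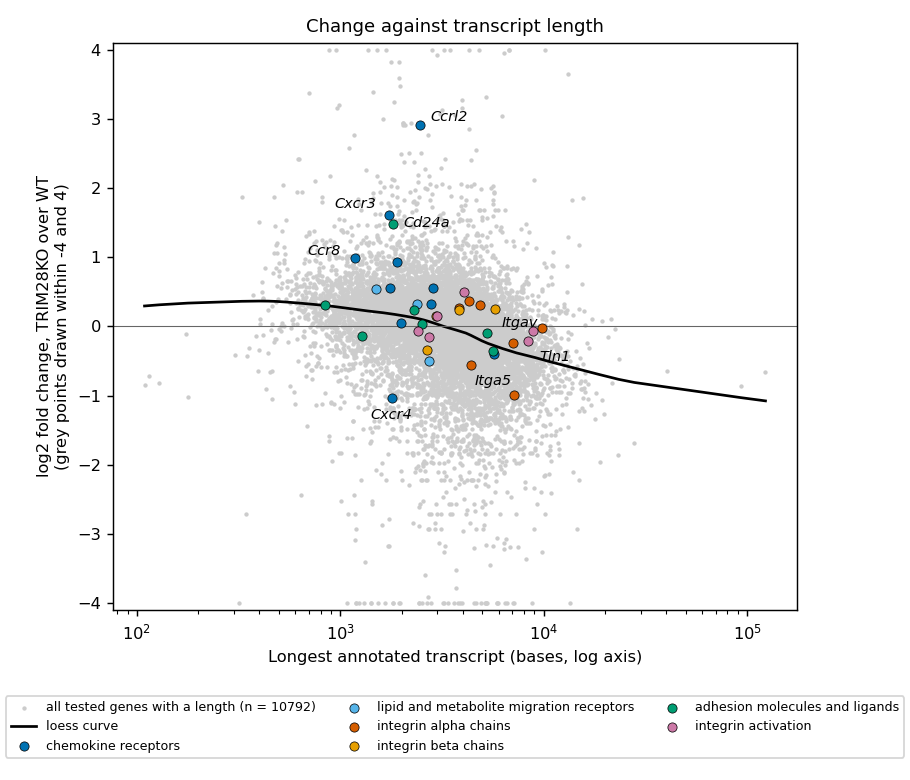
Log2 fold change, TRIM28KO over WT, against the longest annotated transcript in bases (log axis) for 10792 tested genes (grey), with the loess curve (black) and the members coloured by role. The curve falls with length, Cxcr3, Cd24a and Ccr8 lie above it and Cxcr4 and Itga5 below, while Tln1 and Itgav lie under 0 but above the curve.

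Of the 7 adhesion molecules, 1 was called higher (Cd24a), 2 were higher past counting error (Cd24a and Selplg) and none was lower. Of all tested genes 2.57% were called higher, and 21.4% were higher and 22.4% lower past counting error. Cd24a, the glycosylphosphatidylinositol-anchored protein CD24 that ties costimulation to adhesion and can carry P-selectin ligands, showed the largest change in reads of any member. It rose from 970 reads (80.3 RPKM) to 2522 (225 RPKM), 2.79-fold, a log2 fold change of 1.48 (1.38 to 1.59, exact binomial test with Benjamini-Hochberg adjustment, adjusted p = 3.37e-180). The gene lies at chr10:43579169-43584265. CD24 is also abundant on B cells and granulocytes, and which cells the Cd24a reads came from was not tested. Selplg rose from 7098 to 7817 reads (0.24, 0.20 to 0.29). After centring on length, Cd24a was 1.30 and Selplg 0.12.

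The remaining adhesion genes did not pass the test. Icam1, the ligand of LFA-1, had 470 and 447 reads (0.03, -0.16 to 0.22), and Icam2 had 304 and 258 (-0.13, -0.38 to 0.11). Cd47, the "do not eat me" signal that also partners integrins, had 2300 and 1996 (-0.10, -0.19 to -0.01, exact binomial test, adjusted p = 0.0537), and its sign turned to 0.14 after centring on length. Cd44, the hyaluronan receptor and a marker of activated T cells, had 36 and 26 reads, or 0.964 and 0.749 RPKM, with 9 annotated transcripts. As the annotation and the handling of shared reads were not given, these low counts do not establish low expression. Ly6c1 had 6 and 7 reads, and its near-identical neighbour Ly6c2 had 7 and 3. Reads that match both cannot be assigned to either, so their counts are uncertain, and the 8 listed Ly6 genes summed to 37 and 32 reads.

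None of the 6 integrin activation genes was called, and 2 were lower and 2 higher past counting error, beside 22.4% and 21.4% of all tested genes. All but Rasgrp2 stood above the median level of all tested genes in both libraries. Talin (Tln1), which links beta chains to actin, had 6741 and 5397 reads (-0.22, -0.27 to -0.16), while kindlin-3 (Fermt3) had 4642 and 4793 (0.15, 0.09 to 0.21). The ratio of Tln1 to Fermt3 was 0.775 times as large in TRIM28KO (0.734 to 0.819), but Tln1 is among the longest members and was 0.21 after centring on length, against 0.12 for Fermt3. Apbb1ip, encoding the adaptor RIAM that brings talin to Rap1, rose from 678 to 888 reads (0.49, 0.35 to 0.64) and was 0.58 after centring. Rap1b had 3087 and 2596 reads (-0.15, -0.22 to -0.07) and its close paralog Rap1a 1479 and 1321 (-0.06, -0.17 to 0.05). With the GC content of transcripts taken out, Rap1b was 0.003 and Rap1a 0.094. How reads shared between paralogs were counted was not given in the sources used here, and the ratio of Rap1b to Rap1a was 0.942 times as large (0.859 to 1.03). Rasgrp2, the exchange factor CalDAG-GEFI for Rap1, had few reads, 63 and 56 (-0.06, -0.61 to 0.48). Its sign turned on length, at 0.38 after centring. That value rests on the longest of its 24 annotated transcripts, at 8815 bases, and other lengths were not tried.

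Other genes of the same pathway were taken from lists chosen by function. Of 13 further migration receptors tested, 2 were called lower and none higher, 12 were negative, and the median log2 fold change was -0.36 (-0.26 after centring on length). The called genes were Ltb4r1, the leukotriene B4 receptor, with 418 and 140 reads (-1.47, -1.76 to -1.19), and Ptger2, a prostaglandin E2 receptor, with 466 and 168 (-1.36, -1.63 to -1.11). The abundant receptors were Gpr132 (2039 and 1790 reads), S1pr1 (1604 and 1166), which drives exit from lymph nodes, and P2ry10 (891 and 715). Of these 13, 6 were lower past counting error and none was higher. Of all tested genes 22.4% were lower and 21.4% higher past counting error, and 5.53% were called lower and 2.57% higher. Of 5 further chemokine receptors tested, none was called, and 2 were lower and none higher past counting error. Their median log2 fold change was -0.15, or -0.18 after centring on length. Cxcr2, a neutrophil receptor, had 57 and 28 reads and was lower past counting error.

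Downstream of the receptors, 28 genes of chemokine receptor signalling had a median of 0.06, with 8 lower and 11 higher past counting error. The shares over all tested genes were 22.4% and 21.4%, and 5.53% were called lower. Gnai2, the main inhibitory G protein alpha chain, had 9798 and 12684 reads (0.48), Coro1a, an actin regulator, had 10423 and 12145 (0.33), and Rac2, a GTPase of blood cells, had 8271 and 8564 (0.15). Adrbk1, the kinase GRK2 that desensitizes receptors, had 5345 and 6130 (0.30). These 4 genes, the most abundant of the list, were all higher past counting error. After centring on length, Gnai2 was 0.34, Coro1a 0.14, Rac2 0.13 and Adrbk1 0.33. Dock2, the next most abundant, was lower past counting error, with 5624 and 3295 reads (-0.67, and -0.34 after centring). Rgs1, which dampens chemokine receptor signals, was the 1 gene called, with 1006 and 372 reads (-1.33, -1.51 to -1.16). Of 29 further integrin activation genes 2 were called lower, Rasgrp1 (786 and 353 reads, -1.05, -1.24 to -0.87), a Ras exchange factor downstream of the T cell receptor, and Rapgef2 (173 and 71, -1.17), a Rap exchange factor. Of 5 further integrin chains and binding proteins Itga7, an alpha chain of a laminin receptor, was called lower with 531 and 193 reads (-1.35, -1.60 to -1.12).

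**Figure D4:**
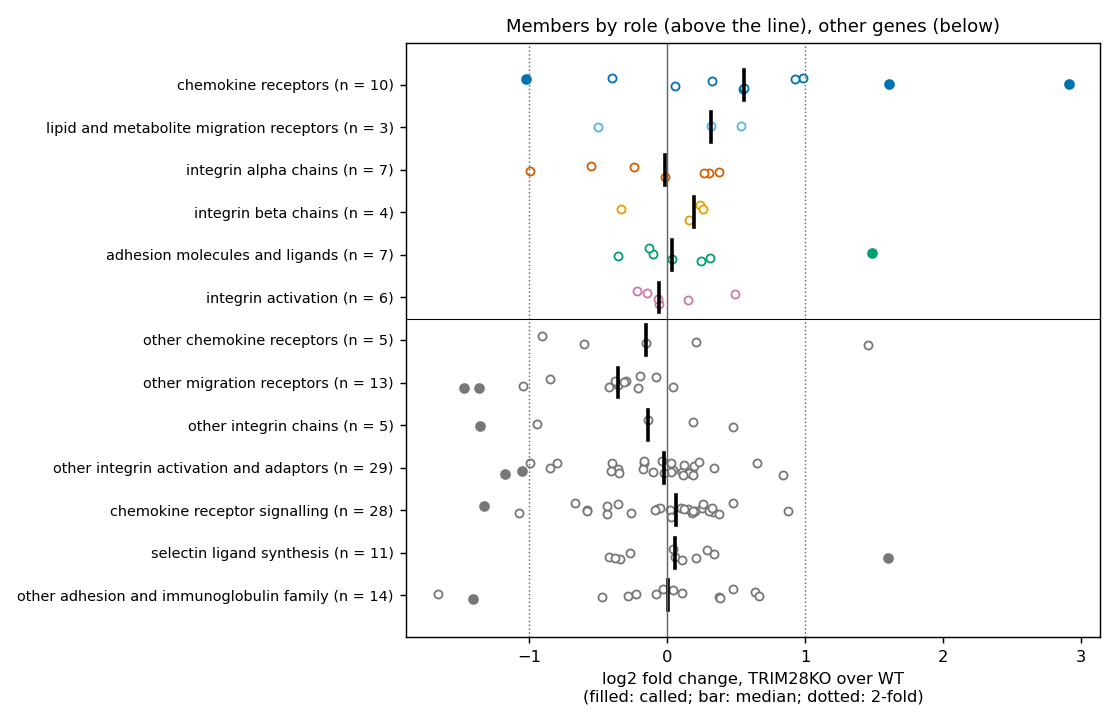
Log2 fold change, TRIM28KO over WT, of the tested genes by role (coloured, above the line) and of other migration and adhesion genes by list (grey, below), 1 circle a gene, filled where called, with the median as a bar and 2-fold as dotted lines. The chemokine receptor members have a median of 0.55 and calls on both sides, and the 13 other migration receptors a median of -0.36 with calls on the lower side. After centring on length, not drawn here, these medians are 0.43 and -0.26.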

How the data were processed

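RNA was measured in 1 library each of WT and TRIM28KO Th17 cells. The authors mapped the reads to mm10 with SOAP2 and deposited raw read counts per gene, not normalized, and genes without reads in a library are not listed there. The submitters' processing notes name bcl2fastq, HTSeq, Bowtie and SICER for all samples without saying which made these counts. The annotation, the use of strand and the handling of reads shared by genes were not given in the sources used here.

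A gene missing from 1 table was given 0 reads. Where both libraries together gave 10 reads or more, a gene was tested by an exact binomial test (two-sided, SciPy 1.17.1) against the share of reads in the TRIM28KO library, with Benjamini-Hochberg adjustment over 10881 genes. Log2 fold changes had 0.5 added to each count and were scaled to the table totals. The 95% intervals are exact Clopper-Pearson intervals and cover counting error only. A count of 3 reads, the limit that a count of 0 allows, is 0.451 CPM in WT and 0.485 CPM in TRIM28KO. With 1 library a genotype, no model leaves residual degrees of freedom. The loess curve of fold change on transcript length had a span of 0.3. Lengths and GC content came from the longest GENCODE M21 transcript, and positions and sequences from RefSeq GRCm38.p6, the assembly of mm10. Of 13704 symbols 12841 matched RefSeq directly, 804 as older symbols and 59 not at all.

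Every member is given by its reads in both libraries. From each other list the genes called are named, and otherwise at most the 4 with the most reads. Dock2, the neighbours on chromosomes 9 and 14 and the Ly6 genes are named besides. A few genes of these lists are not reported here. The members, lists, pairs and motifs were chosen with earlier results of these data known. Alternatives were TMM (edgeR 4.0.16), DESeq2 1.42.0 size factors, other read minimums, another pseudocount, length and GC corrections, edgeR's exact test with an assumed biological variation, and a limit of 1.5-fold. The test and loess script was tested on simulated data.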

Additional observations from a re-analysis of the deposited data

How the results depend on the processing

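Without replicates, variation between cultures is unknown, and depth limits the 9 members with under 100 reads. No paired analysis was possible because each genotype has 1 library, and no library could be left out. With an assumed biological coefficient of variation of 0.2 in edgeR's exact test, 0 members were called lower and 2 higher (Cd24a and Cxcr3), and with 0.4, 0 and 0. Over all genes these settings called 131 lower and 65 higher, and 9 and 7. GC correction called 0 members lower (Cxcr4 at -0.93) and 4 higher (adding Cxcr6 at 1.04), and over all genes 548 and 294. A limit of 1.5-fold called 1 lower and 5 higher (adding Ccr8 and Cxcr6), and over all genes 1248 and 764. Requiring 10 reads in each library left out Ccrl2, called 1 lower and 2 higher, and over all genes 389 and 184. TMM and DESeq2 size factors each called 1 lower and 4 higher (adding Ccr8), and over all genes 585 lower and 298 or 297 higher. Length correction called the same 4 members, and over all genes 466 lower and 266 higher. Over the alternatives the median of the members, 0.16 on the log2 scale, ranged from 0.12 to 0.20. Of 366 values of single members, 341 kept their direction and side of the threshold, 5 passed it, 7 no longer did, and 13 changed sign without being called in either setting, 7 of them under length correction, 5 under GC correction and 1 (Itga4) under TMM.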

Other observations

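Genes that build selectin ligands and other T cell adhesion genes were compared in the same way. Over all tested genes 5.53% were called lower and 2.57% higher. Of 11 tested genes of selectin ligand synthesis 1 was called higher, Tpst1, a tyrosine sulfotransferase, with 11 and 32 reads (log2 fold change 1.60, 0.62 to 2.78) in WT and TRIM28KO. The carrier Spn, encoding CD43, had 3981 and 4517 reads (0.29), and the galactosyltransferase B4galt1 had 3183 and 2212 (-0.42). Of 14 other adhesion genes 1 was called lower, Alcam, the CD6 ligand, with 291 and 102 reads (-1.40, -1.75 to -1.08). Cd2, an adhesion and costimulation receptor, had 2315 and 2790 reads (0.37).

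None of 10 genes typical of naive T cells was called, but 5 were lower past counting error and 1 was higher. Of all tested genes 22.4% were lower and 21.4% higher. The median of the naive genes was -0.45 (-0.33 after centring on length). The most abundant of the 10 were Tcf7 (9975 and 6363 reads, -0.54), Ccr7, Bach2 (4049 and 2044, -0.88) and Foxo1 (2509 and 1421, -0.72). After centring on length, Tcf7 was -0.65, Bach2 -0.44 and Foxo1 -0.28. None of 10 genes of activated T cells was called, with 2 lower and 3 higher past counting error. Their log2 fold changes ran from -0.36 to 0.19, with a median of -0.06. Il2ra, the lowest of these genes, had 12320 and 8925 reads (-0.36) and Mki67 4918 and 4513 (-0.02).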
